A study of Mus musculus with 9 samples.

Results

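Tcf21, Pdgfra, Ddr2, Pi16, Dpt, Fstl1, Pcolce, Gsn and Vim are genes that cardiac fibroblasts express at rest, and they are described here in whole mouse hearts. They were chosen by symbol, as known marks of these cells, and make up 9 of the 21989 genes in the deposited table. Earlier results of these data were known when they were chosen, so counts among the 9 are a description. All 9 are among the 11380 genes that passed a filter on low values (3 or more of the 9 libraries at 1 FPKM or above). FPKM is the number of sequenced fragments scaled to gene length and library size. Poly-A RNA was sequenced from hearts of male C57BL/6J mice, 18 to 20 weeks of age, in 3 groups of 3. LD hearts came from mice with TAC that received Lingguizhugan decoction, a Chinese herbal preparation. TAC hearts came from mice with the same operation that received distilled water. TAC is commonly the abbreviation for transverse aortic constriction, which makes the left ventricle pump against a narrowed aorta. Sham hearts came from mice with a sham operation and distilled water. No group carries a transgene or deletion, and the labels name neither the dose of the decoction nor the time from operation to collection.

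Cardiac fibroblasts arise mostly from the epicardium during development and build and maintain the collagen network between muscle cells. At rest they depend on the transcription factor Tcf21 and carry the receptor Pdgfra on their surface. When the heart is overloaded they can divide and switch to an activated state with its own genes, such as Postn and Comp. In RNA from whole tissue, fewer cells of a type and less RNA per cell cannot be told apart, so a level below is a level in the heart and not in a fibroblast.

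The sequence upstream of the gene start is shown for the transcription factor, the receptor, a matrix gene and an actin-severing gene. The transcription factor, the receptor and the matrix gene had their highest mean in TAC. The actin-severing gene averaged 910 FPKM in LD and 901 FPKM in TAC. The windows are from RefSeq (GRCm38.p6), 250 bases before the gene start, without bases that GENCODE M21 places in an exon, and read 5′ to 3′ along the gene. Capitals mark CAGCTG, a form of the E-box, the short element bound by basic helix-loop-helix factors such as Tcf21. The Tcf21 stretch is chr10:22820175-22820393 on the minus strand, that of Pdgfra is chr5:75152001-75152250, that of Dpt is chr1:164796413-164796643 and that of Gsn is chr2:35256109-35256358, the last 3 on the plus strand.
Tcf21: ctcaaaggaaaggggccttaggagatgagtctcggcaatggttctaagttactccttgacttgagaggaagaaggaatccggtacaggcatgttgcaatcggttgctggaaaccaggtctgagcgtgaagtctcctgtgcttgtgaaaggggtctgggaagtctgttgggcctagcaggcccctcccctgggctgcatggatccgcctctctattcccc
Pdgfra: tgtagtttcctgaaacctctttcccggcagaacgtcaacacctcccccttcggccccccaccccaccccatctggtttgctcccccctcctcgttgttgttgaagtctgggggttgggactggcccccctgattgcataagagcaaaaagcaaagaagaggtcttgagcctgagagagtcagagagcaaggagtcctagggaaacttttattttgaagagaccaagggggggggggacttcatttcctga
Dpt: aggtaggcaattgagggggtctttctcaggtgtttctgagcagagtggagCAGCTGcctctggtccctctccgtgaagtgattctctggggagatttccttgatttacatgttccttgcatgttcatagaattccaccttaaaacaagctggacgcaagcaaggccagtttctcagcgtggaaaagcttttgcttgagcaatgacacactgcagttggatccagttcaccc
Gsn: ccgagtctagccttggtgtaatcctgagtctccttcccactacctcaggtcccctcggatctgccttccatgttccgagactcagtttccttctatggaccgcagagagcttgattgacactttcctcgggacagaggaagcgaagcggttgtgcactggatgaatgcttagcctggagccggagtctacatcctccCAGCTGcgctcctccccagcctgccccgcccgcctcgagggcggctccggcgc

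CAGCTG, which reads the same on both strands, stood in 4 of the 11 RefSeq windows of these genes and in 3 of the 9 genes: Dpt, Gsn (in 2 of its windows) and Pcolce. Of all 32851 windows of this length, 13.0% held it, and of the 11177 windows of genes tested here, 12.1%. In Dpt it began 200 bases before the RefSeq gene start, and in the Gsn window shown it began 53 bases before that of Gsn. The gene coordinates given below are from GENCODE, whose starts of Dpt and Gsn differ from those of RefSeq. CATCTG, searched on both strands, was in 4 windows (14.4% of all windows, 9.98% of those of tested genes), and TATAAA, also on both strands, was in 2 (12.4% and 6.48%). The 3 motifs differ in their letters, so no position counts under more than 1 of them. The Tcf21 stretch held none of the 3. A match describes letters in a window and not a bound site.

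Library size, recovered from the deposited values, was 7.41 to 18.04 M counts in LD, 8.39 to 14.85 M in TAC and 14.5 to 18.08 M in sham. Low counts fell into 2 patterns. Among genes with 1 to 100 counts, 90.3% to 91.3% of counts were even numbers in 4 libraries (TAC replicates 2 and 3, sham replicates 1 and 3), against 50.2% to 55.0% in the other 5 (all 3 LD libraries, TAC replicate 1 and sham replicate 2). What made this pattern is not given in the sources used here. TAC and sham are each split by it and no LD library is in the first set, so a difference of LD from TAC or sham and the pattern cannot be fully told apart, and values within each set are given beside the pooled ones. On the first principal component of all genes (29.4% of the variance), TAC replicate 3 lay at 51.0 and LD replicate 3 at -48.3, with the other 7 between -17.1 and 10.4. With limma, no gene of the 11380 passed an adjusted p of 0.05 in any comparison, while voom on recovered counts called 4 in LD against sham, 0 in LD against TAC and 3 in TAC against sham. A moderated F test over the 3 groups called none either, with 769 genes at an unadjusted p under 0.05, and its adjusted p was 0.471 for Tcf21 and at least 0.723 for the other 8 genes. The 3 comparisons share samples: TAC hearts stand in both TAC against sham and LD against TAC, and LD and sham hearts likewise in 2 each.

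Tcf21, the basic helix-loop-helix factor of the fibroblast lineage (chr10:22817281-22820174, minus strand), was highest in TAC. It had 9.89, 8.66 and 10.5 FPKM in LD hearts, 14.0, 22.1 and 19.45 FPKM in TAC hearts and 8.73, 9.67 and 6.18 FPKM in sham hearts. Every TAC heart was above every LD and every sham heart, while LD and sham overlapped. TAC was higher than sham by 1.08 ± 0.26 on the log2(FPKM + 1) scale (SE; limma adjusted p = 0.458), and LD was lower than TAC by a log2 difference of -0.85 ± 0.26 (adjusted p = 0.535). By size of p the TAC difference of Tcf21 ranked 24 among all genes tested. The LD minus sham difference was 0.23 ± 0.26, with a 95% interval from -0.33 to 0.79. Within the 4 libraries of mostly even counts the TAC minus sham difference of Tcf21 was 1.38, and within the other 5 it was 0.49, with 1 heart on each side. Its LD minus TAC difference within those 5, 3 hearts against 1, was -0.50. These levels rest on 91 to 408 counts per library, the fewest of the 9 genes.

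**Figure D1:**
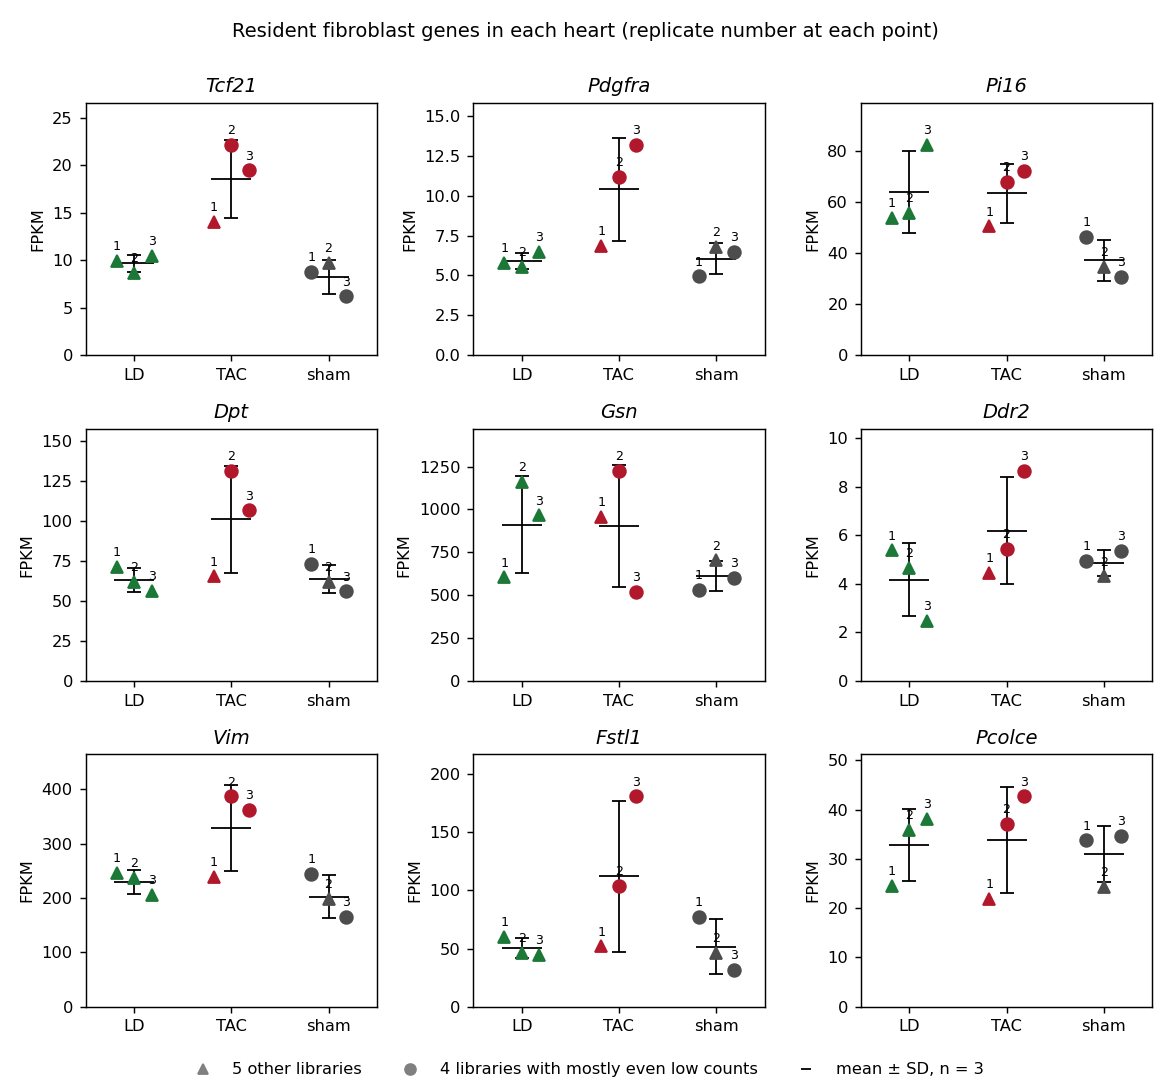
Expression of the 9 genes in each heart, in FPKM, with LD, TAC and sham from left to right. Points are single hearts with their replicate number, triangles are the 5 libraries without the even pattern, circles are the 4 libraries with mostly even counts, and bars are mean ± SD (n = 3). In Tcf21 all 3 TAC hearts, at 14.0 to 22.1 FPKM, lie above the LD and sham hearts, and TAC replicate 1 is the lowest of them.

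Other basic helix-loop-helix factors, partners and relatives of Tcf21, did not show this pattern. Of 7 listed, 6 were tested and none had a p under 0.05 in TAC against sham or in LD against TAC, with median log2 differences of 0.081 and -0.36. Tcf4, one of the broadly expressed partners that pair with Tcf21, averaged 18.2 ± 9.15 FPKM in LD and 28.1 ± 4.42 FPKM in TAC (SD, n = 3 each), a log2 difference of -0.72 ± 0.34. Msc, the closest relative of Tcf21 in sequence, had a TAC minus sham difference of 0.080 ± 0.31.

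Pdgfra, the receptor tyrosine kinase for platelet-derived growth factors (chr5:75152292-75198215, plus strand), was also highest in TAC. Its levels were 5.77, 5.51 and 6.47 FPKM in LD hearts, 6.85, 11.2 and 13.2 FPKM in TAC hearts and 4.94, 6.78 and 6.46 FPKM in sham hearts. No TAC heart overlapped LD or sham, but TAC replicate 1 exceeded the highest sham heart only narrowly. The log2 difference was 0.66 ± 0.28 for TAC minus sham (adjusted p = 0.903) and -0.68 ± 0.28 for LD minus TAC (adjusted p = 0.537). Within the libraries of mostly even counts the first was 0.98, and within the other 5 it was 0.012. LD and sham means were 5.92 ± 0.50 and 6.06 ± 0.98 FPKM (SD, n = 3 each), with an interval of the log2 difference from -0.62 to 0.57. Of the PDGF ligands and other receptors, 5 of 6 were tested and none had a p under 0.05 in either comparison. Pdgfb, a ligand, averaged 11.8 ± 1.62 FPKM in TAC and 15.8 ± 1.49 FPKM in sham without overlap (log2 difference -0.39 ± 0.26). Of these 5 tested genes, 3 were above 0 and 2 below in TAC minus sham, with a median of 0.19.

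Ddr2, a receptor tyrosine kinase that binds fibrillar collagen (chr1:169972307-170110762, minus strand), had the lowest mean level of the 9 genes, 5.07 FPKM over all hearts. It had 5.37, 4.65 and 2.47 FPKM in LD hearts, 4.45, 5.43 and 8.65 FPKM in TAC hearts and 4.94, 4.30 and 5.35 FPKM in sham hearts. All groups overlapped, and its extremes were LD replicate 3 and TAC replicate 3, the pair that also stood apart over all genes. Its log2 differences were 0.25 ± 0.31 for TAC minus sham (limma adjusted p = 0.999) and -0.48 ± 0.31 for LD minus TAC (adjusted p = 0.634). Without both of those libraries the second became 0.0195. Col1a2, a chain of the collagen I that Ddr2 binds, averaged 23.5 ± 1.85 FPKM in LD, 43.2 ± 22.7 FPKM in TAC and 25.3 ± 6.48 FPKM in sham, with log2 differences of -0.72 for LD minus TAC and 0.64 for TAC minus sham. Col1a1, the other chain, averaged 14.3 ± 4.54 FPKM in LD, 17.3 ± 4.84 FPKM in TAC and 13.5 ± 2.23 FPKM in sham. None of the 6 genes listed with Ddr2 had a p under 0.05.

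Pi16, a secreted peptidase inhibitor of the CAP family that marks a universal fibroblast population of many tissues (chr17:29317680-29330593, plus strand), differed from Tcf21 and Pdgfra in LD. It had 53.9, 55.7 and 82.5 FPKM in LD hearts, 50.5, 68.1 and 72.3 FPKM in TAC hearts and 46.3, 34.7 and 30.6 FPKM in sham hearts. Both operated groups lay wholly above sham, and LD and TAC overlapped throughout. TAC minus sham was 0.76 ± 0.26 (log2; limma adjusted p = 0.772), LD minus sham was 0.76 ± 0.26 (adjusted p = 0.875) and LD minus TAC was -0.00071 ± 0.26, with an interval from -0.55 to 0.55. Within the 5 libraries without the even pattern LD exceeded the single sham heart by 0.84 and the single TAC heart by 0.31, and with the counting pattern as a term in the fit LD minus sham was 0.95. Across the 24 alternatives with LD hearts the adjusted p of Pi16 in LD against sham ran from 0.0896 to 1.0.

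Crispld2, a secreted protein with the same CAP domain, did not follow Pi16 in LD. It averaged 33.9 ± 10.8 FPKM in LD, 60.4 ± 19.0 FPKM in TAC and 28.9 ± 1.91 FPKM in sham, with no overlap between TAC and either other group. Its log2 differences were 0.99 ± 0.29 for TAC minus sham and -0.82 ± 0.29 for LD minus TAC. Of the 4 tested genes in the CAP list, 1 was higher in TAC than in sham and 2 were lower in LD than in TAC at an unadjusted p under 0.05. The other of these 2, Glipr2, averaged 2.43 ± 1.83 FPKM in LD and 5.56 ± 1.42 FPKM in TAC.

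Dpt, which encodes dermatopontin, a matrix protein that binds decorin and helps collagen fibrils form (chr1:164796644-164824266, plus strand), was high in 2 hearts. It had 71.1, 61.8 and 56.5 FPKM in LD hearts, 65.3, 131 and 107 FPKM in TAC hearts and 73.2, 62.1 and 56.0 FPKM in sham hearts. TAC replicates 2 and 3 stood above all others, TAC replicate 1 lay inside the LD and sham ranges, and LD and sham nearly coincided. The log2 difference was 0.61 ± 0.26 for TAC minus sham (adjusted p = 0.903) and -0.62 ± 0.26 for LD minus TAC (adjusted p = 0.54), and LD minus sham was -0.012 ± 0.26. Within the 5 libraries without the even pattern TAC minus sham was 0.071 and LD minus TAC was -0.055. Dcn, the decorin that Dpt binds, averaged 342 ± 81.7 FPKM in LD, 686 ± 239 FPKM in TAC and 311 ± 44.8 FPKM in sham, and its TAC hearts overlapped neither LD nor sham. Its log2 differences were 1.09 ± 0.28 for TAC minus sham and -0.97 ± 0.28 for LD minus TAC.

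Fstl1, a secreted glycoprotein of the SPARC family with a follistatin-like domain (chr16:37776873-37836514, plus strand), had the widest range of the 9 genes, with 5.69-fold between its highest and lowest library. It had 60.3, 46.5 and 44.8 FPKM in LD hearts, 51.8, 104 and 181 FPKM in TAC hearts and 77.3, 46.1 and 31.8 FPKM in sham hearts. TAC replicates 2 and 3 were the only libraries above sham replicate 1, and TAC replicate 1 lay below it, so the groups overlapped. The mean log2 difference was 1.02 ± 0.40 for TAC minus sham (adjusted p = 0.829) and -0.97 ± 0.40 for LD minus TAC (adjusted p = 0.54). Without TAC replicate 3 the TAC minus sham difference of Fstl1 was 0.59, and within the 5 libraries without the even pattern it was 0.17. Among 6 tested relatives and ligands listed with Fstl1, none had a p under 0.05 in TAC against sham. Sparc, a collagen-binding relative, averaged 135 ± 26.7 FPKM in LD, 192 ± 68.5 FPKM in TAC and 186 ± 98.6 FPKM in sham. Fstl4 was the 1 gene of that list with a p under 0.05 in LD against TAC, at 1.49 ± 0.27 FPKM in LD and 0.54 ± 0.45 FPKM in TAC.

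Pcolce, the enhancer of procollagen C-proteinase, which speeds the trimming of fibrillar procollagens (chr5:137605103-137613784, minus strand), showed no order of groups. It had 24.6, 35.8 and 38.1 FPKM in LD hearts, 21.8, 37.1 and 42.7 FPKM in TAC hearts and 33.8, 24.4 and 34.7 FPKM in sham hearts. TAC held both the lowest and the highest of all 9 values. Its log2 differences were 0.089 ± 0.29 for TAC minus sham, -0.014 ± 0.29 for LD minus TAC and 0.075 ± 0.29 for LD minus sham, with the first interval from -0.53 to 0.71. Its paralog Pcolce2 did separate the groups: it averaged 17.8 ± 3.78 FPKM in LD, 19.6 ± 2.78 FPKM in TAC and 8.58 ± 1.73 FPKM in sham. Pcolce2 was higher in TAC than in sham by 1.11 ± 0.25 (log2; adjusted p = 0.394) without overlap, while LD minus TAC was -0.14 ± 0.25. Adamts2, a procollagen N-proteinase, was higher in TAC than in sham by 0.76 ± 0.31 (log2), and Bmp1, the C-proteinase that Pcolce enhances, differed by -0.37 ± 0.26. Fbxo24 shares 112 exon bases with Pcolce, 2.93% of its exon length, and reached at most 1.63 FPKM.

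Gsn, which encodes gelsolin, an actin-severing protein found in fibroblasts and in other heart cells (chr2:35256380-35307892, plus strand), was the most abundant of the 9 genes, with a mean of 808 FPKM. It had 603, 1161 and 966 FPKM in LD hearts, 956, 1226 and 521 FPKM in TAC hearts and 529, 703 and 603 FPKM in sham hearts. The 2 TAC hearts with the most Tcf21 were on opposite ends for Gsn: replicate 2 was the highest of all libraries and replicate 3 the lowest. Log2 differences were 0.48 ± 0.32 for TAC minus sham (limma adjusted p = 0.987), 0.049 ± 0.32 for LD minus TAC and 0.53 ± 0.32 for LD minus sham (adjusted p = 0.875). Among 5 tested genes of the gelsolin family, Capg, an actin-capping protein, averaged 18.2 ± 4.32 FPKM in TAC and 11.3 ± 2.93 FPKM in sham (log2 difference 0.65 ± 0.28). The median TAC minus sham difference of the 5 was -0.30, with 1 higher (Capg) and 1 lower (Avil) at a p under 0.05, and the TAC hearts of Scin and Flii lay wholly below sham. Avil, the related protein advillin, averaged 1.67 ± 1.48 FPKM in TAC and 3.54 ± 0.94 FPKM in sham. Scin, the closest paralog of Gsn, averaged 2.66 ± 0.42 FPKM in LD, 0.72 ± 0.17 FPKM in TAC and 1.74 ± 0.87 FPKM in sham, and LD minus TAC was 1.09 ± 0.31 (adjusted p = 0.52). All 5 of these family members had LD means above TAC.

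Vim, which encodes vimentin, the intermediate filament of mesenchymal cells that endothelial cells and leukocytes also carry (chr2:13573927-13582826, plus strand), had 246, 236 and 205 FPKM in LD hearts, 239, 386 and 362 FPKM in TAC hearts and 244, 198 and 165 FPKM in sham hearts. As with Dpt, TAC replicates 2 and 3 were above all other libraries and TAC replicate 1 was not. TAC minus sham was 0.69 ± 0.24 (log2; limma adjusted p = 0.772), LD minus TAC was -0.49 ± 0.24 (adjusted p = 0.571) and LD minus sham was 0.19 ± 0.24. Other filament genes did not show this order: of 5 tested, none had a p under 0.05 in TAC against sham, and Des, the desmin of muscle cells, differed by 0.12 ± 0.26. Nes, which encodes nestin, averaged 17.4 ± 4.11 FPKM in LD and 29.6 ± 11.4 FPKM in TAC, and was the 1 gene of this list with a p under 0.05 in LD against TAC. Its sham hearts had 42.5, 24.2 and 24.6 FPKM, all above the LD hearts.

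**Figure D2:**
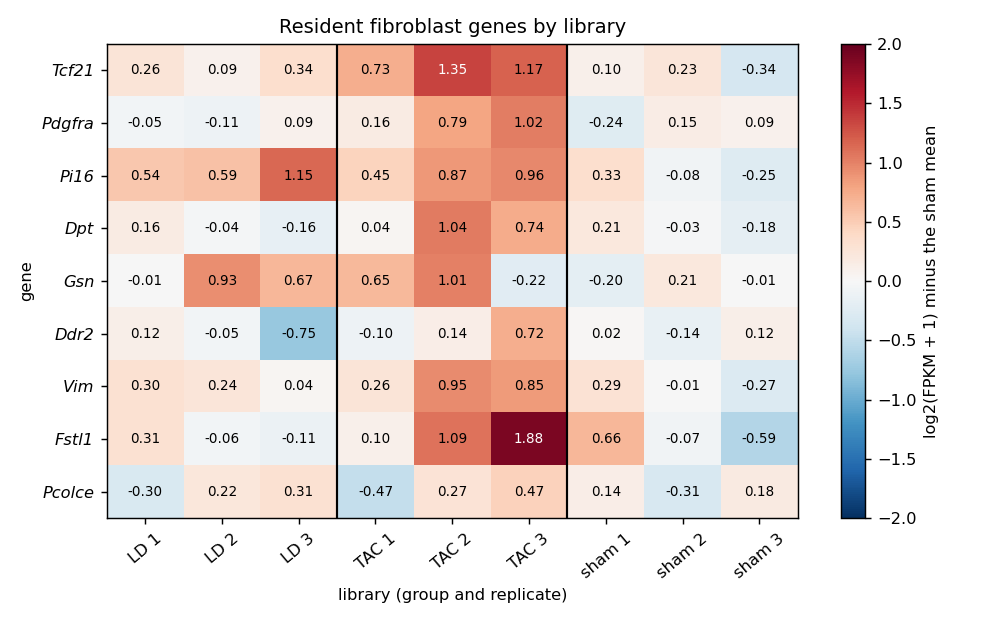
Level of each gene in each library as log2(FPKM + 1) minus the sham mean of that gene, with genes as rows and libraries as columns in the order LD, TAC and sham; red is above the sham mean and blue below. TAC replicates 2 and 3 are red in nearly every row, TAC replicate 1 is red mainly for Tcf21, Gsn and Pi16, and the Pi16 row is red in all LD columns.

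The effect of the operation on these genes was read from TAC against sham. All 9 had a higher mean log2 level in TAC, and the median difference was 0.66, against -0.0001 for all genes tested, of which 50% were above 0. With limma, 0 of the 9 passed an adjusted p of 0.05 and 6 had an unadjusted p under 0.05 (Tcf21, Pi16, Vim, Fstl1, Pdgfra and Dpt), where 2.85% of all genes tested were higher and 2.58% lower at that level. In 3 of the 9 (Tcf21, Pdgfra and Pi16) every TAC heart was above every sham heart, as were those of 5.22% of all genes tested, with 4.62% wholly below. With voom on recovered counts none of the 9 passed either, and 6 had a p under 0.05. The 9 were above 0 under each of the 4 scalings tried. The count of 6 was 2 without TAC replicate 2, 2 without sham replicate 3, 4 without TAC replicate 3 and 4 without sham replicate 2, and it was again 6 without TAC replicate 1.

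The 3 TAC hearts were not alike. Averaged over the 9 genes, the log2 deviation from the sham mean was 0.20, 0.83 and 0.84 in TAC replicates 1, 2 and 3, against 0.15, -0.01 and -0.14 in sham. TAC replicate 1 was close to sham replicate 1 and is the 1 TAC library without the even pattern of low counts, so whether the heart or the counting set it apart cannot be told. The median TAC minus sham difference of the 9 genes was 0.88 within the 4 libraries of mostly even counts, 2 hearts against 2, where 6 of the 9 again had a p under 0.05. Within the other 5 libraries, 1 TAC heart against 1 sham heart, it was 0.17, and 8 of the 9 were above 0. The spread in that fit comes from the LD hearts alone, so no call is read from it.

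The effect of the decoction in operated hearts was read from LD against TAC. Of the 9 genes 8 had a lower mean log2 level in LD, and the median was -0.49, against -0.10 for all genes tested, of which 39.6% were above 0. With limma 0 of the 9 passed an adjusted p of 0.05, and 4 (Tcf21, Pdgfra, Fstl1 and Dpt) were lower with an unadjusted p under 0.05, where 6.31% of all genes tested were lower and 2.51% higher. In 2 of the 9, Tcf21 and Pdgfra, every LD heart was below every TAC heart, as were those of 8.14% of all genes tested, with 3.73% wholly above. With voom none passed and 3 had a p under 0.05. The count of 4 was 1 without TAC replicate 2, TAC replicate 3 or LD replicate 2, 2 without LD replicate 3, 3 without LD replicate 1 and 5 without TAC replicate 1. The number of the 9 below 0 was 6 after median-of-ratios or upper-quartile scaling, which put the median of all genes at 0.0092 and 0.0179, and 9 after rescaling to equal sums, which put it at -0.19. The count of 4 lower with a p under 0.05 was 2 after median-of-ratios scaling, 1 after upper-quartile scaling and 5 after rescaling to equal sums.

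All LD hearts are in the set of libraries without the even pattern. Against the single TAC heart of that set the median LD minus TAC difference of the 9 genes was -0.062, with 7 of 9 below 0, and no call is read from 1 heart. With the pattern as a term in the fit of all 9 libraries the median was -0.27, and 1 of the 9, Tcf21, had a p under 0.05, with a log2 difference of -0.79. In that fit Pdgfra differed by -0.51, Fstl1 by -0.47 and Dpt by -0.32.

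The distance of treated operated hearts from sham hearts was read from LD against sham. Of the 9 genes 6 were above 0, with a median of 0.075 against -0.11 for all genes tested, of which 37.2% were above 0. With limma 0 of the 9 passed an adjusted p of 0.05, and 1, Pi16, was higher with an unadjusted p under 0.05 (1.52% of all genes tested, with 3.59% lower) and was also the 1 gene without overlap (4.47% of all genes tested wholly above sham, 8.76% wholly below). Without LD replicate 3, the heart with the most Pi16 and, as given with the other cell markers, the highest atrial genes, the count was 0; the part of the atrial genes was not tested. Without LD replicate 1 or without TAC replicate 3 it was 2. With voom it was 1. The intervals of the other 8 genes all held 0, and the widest, that of Fstl1, ran from -0.81 to 0.90. With the pattern as a term all 9 were above 0, with a median of 0.34.

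**Figure D3:**
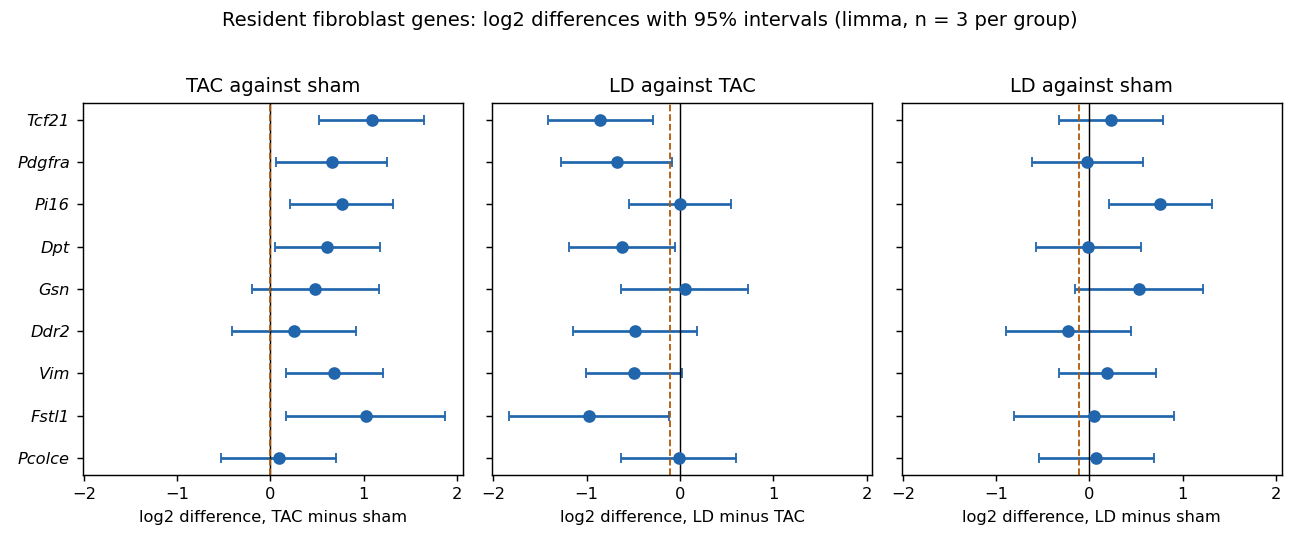
Log2 differences of the 9 genes with 95% intervals from limma for TAC minus sham, LD minus TAC and LD minus sham; the solid line is 0 and the dashed line is the median of all 11380 genes tested. All 9 points lie right of 0 for TAC minus sham, 8 lie at or left of 0 and 1 right of it for LD minus TAC, and for LD minus sham Pi16 has the 1 interval that leaves out 0.

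Other genes that resting cardiac fibroblasts express were read beside the 9. Of 28 such genes 26 had higher means in TAC than in sham and 10 had a p under 0.05, with a median of 0.43. Of all genes tested, 50% were above 0 in that comparison and 2.85% were higher with a p under 0.05. Mgp, the matrix Gla protein that blocks calcification, averaged 789 ± 240 FPKM in TAC and 367 ± 56.9 FPKM in sham (log2 difference 1.07 ± 0.28). Mfap5, a microfibril protein, averaged 53.4 ± 21.4 FPKM in TAC and 22 ± 6.24 FPKM in sham. In LD against TAC 24 of the 28 were lower and 4 had a p under 0.05, with a median of -0.29. The 4 were Dcn, Ogn, Medag and Hic1. Of all genes tested, 39.6% were above 0 in LD against TAC and 6.31% were lower with a p under 0.05. Ogn, the proteoglycan osteoglycin, averaged 33.0 ± 10.1 FPKM in LD and 79.7 ± 41.4 FPKM in TAC. Hic1, a repressor that keeps mesenchymal progenitors quiet, averaged 3.85 ± 1.35 FPKM in LD and 7.40 ± 2.35 FPKM in TAC without overlap, and 6.39 ± 2.61 FPKM in sham. Within the 5 libraries without the even pattern the median of the 28 was 0.18 for TAC minus sham and 0.11 for LD minus TAC, the opposite sign to the pooled one. In 11 tested genes of adventitial fibroblasts, the population in which Pi16 is highest, the medians were 0.34 for TAC minus sham and -0.34 for LD minus TAC, against 0.030 and 0.025 within the 5 libraries.

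Genes of activated fibroblasts had larger median differences from sham than the 9 resting genes, in TAC and also in LD. Of 16 tested, 15 were higher in TAC than in sham and 13 had a p under 0.05, with a median of 1.55. In LD against sham 13 were higher and 8 had a p under 0.05, with a median of 0.95, while the 9 resting genes had 0.075. Of all genes tested, 50% were above 0 in TAC against sham and 37.2% in LD against sham. In the same order, 2.85% and 1.52% were higher with a p under 0.05. Comp, a matrix protein of cartilage and scar, averaged 19.9 ± 9.01 FPKM in LD, 20.0 ± 9.10 FPKM in TAC and 2.61 ± 1.0 FPKM in sham. Meox1, a homeobox factor switched on in activated cardiac fibroblasts, averaged 11.2 ± 2.69 FPKM in LD and 30.1 ± 13.2 FPKM in TAC without overlap, a log2 difference of -1.28 ± 0.34. It was the 1 gene of the 16 with a p under 0.05 in LD against TAC, where the median was -0.45. Within the 5 libraries without the even pattern the activated median was 0.66 for TAC minus sham, 0.41 for LD minus TAC and 1.13 for LD minus sham, and with the pattern as a term the LD minus TAC median was -0.027. The gap between the resting and the activated list was not tested.

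**Figure D4:**
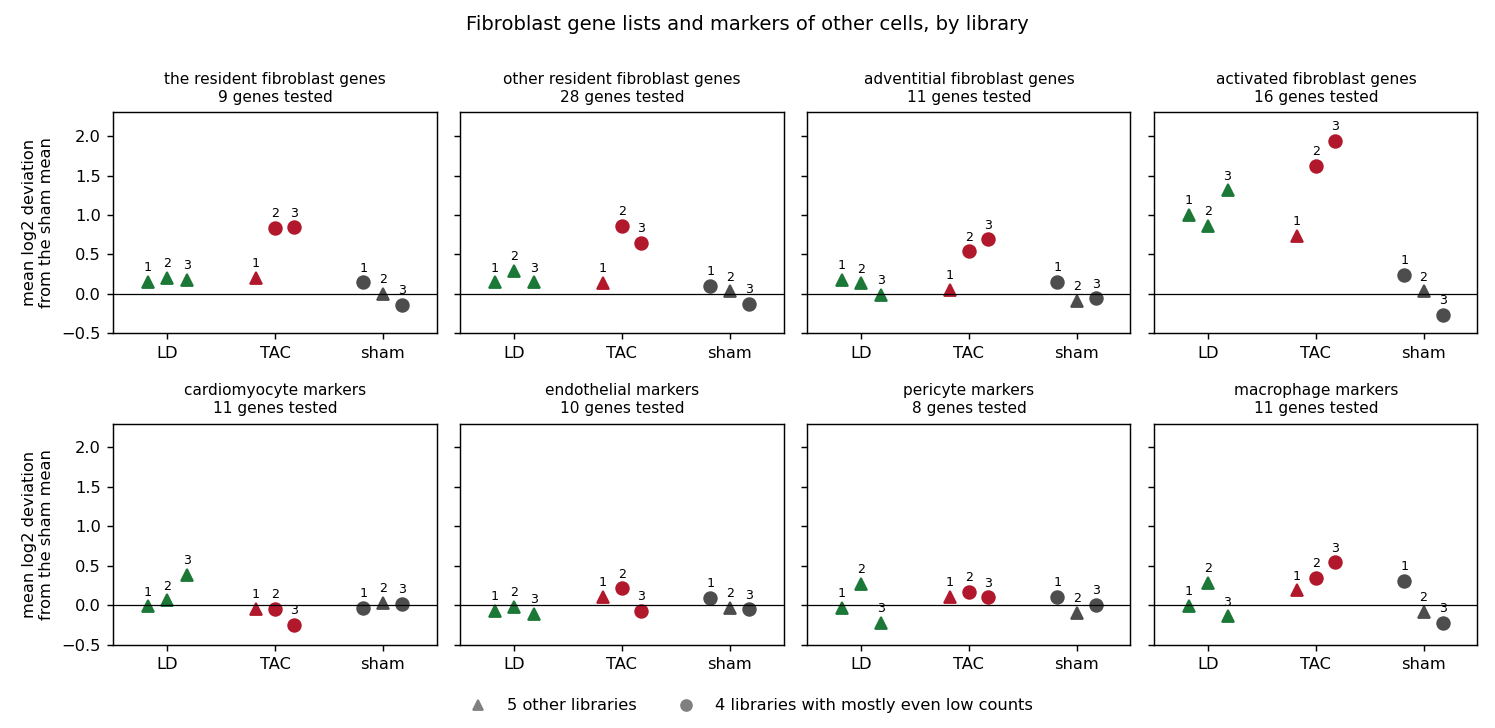
Mean log2 deviation from the sham mean for each list of genes in each library, with LD, TAC and sham from left to right, replicate numbers at the points, and circles for the 4 libraries with mostly even counts. For the 9 resident fibroblast genes TAC replicates 2 and 3 lie at 0.83 and 0.84 and all other libraries between -0.14 and 0.20, while activated genes are above all sham hearts in every LD and TAC heart.

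Markers of other heart cells were read in the same libraries. Of all genes tested, 50% were above 0 in TAC against sham and 39.6% in LD against TAC. Of 11 cardiomyocyte genes 8 were lower in TAC than in sham, with a median of -0.065, and 8 were higher in LD than in TAC, with a median of 0.23. Without TAC replicate 3 the first median was 0.024, and without LD replicate 3 the second was 0.085. Their summed level was 60082 to 91039 FPKM in LD, 46845 to 62115 FPKM in TAC and 60775 to 66148 FPKM in sham. Tnni3, cardiac troponin I, averaged 8769 ± 1633 FPKM in LD, 5999 ± 294 FPKM in TAC and 8508 ± 902 FPKM in sham. It was 1 of 2 genes of this list lower in TAC than in sham at a p under 0.05, and 3 of the 11 were higher there. Of 10 tested endothelial genes 6 were lower in TAC than in sham, with a median of -0.015. Sums over all 11 listed were 914 to 1215 FPKM in LD, 1059 to 1341 FPKM in TAC and 1086 to 1321 FPKM in sham, and overlapped. Of 11 macrophage genes 9 were higher in TAC than in sham, with a median of 0.30 (0.16 without TAC replicate 3), and summed to 295 to 432 FPKM in LD, 331 to 480 FPKM in TAC and 285 to 448 FPKM in sham. Of 5 red cell genes all were higher in TAC than in sham, with a median of 1.39, and summed to 1205 to 2274 FPKM in LD, 2238 to 11051 FPKM in TAC and 516 to 3342 FPKM in sham. Of 9 listed epicardial genes 3 were tested (Wt1, Aldh1a2 and Tbx18). All 3 were higher in TAC than in sham, with a median of 0.28 and none at a p under 0.05, and all 3 were lower in LD than in TAC, with a median of -0.67 and 1, Wt1, at a p under 0.05. Wt1, a transcription factor of the epicardium, averaged 3.25 ± 3.15 FPKM in LD, 6.95 ± 3.20 FPKM in TAC and 5.29 ± 1.16 FPKM in sham, and its LD minus TAC difference was -1.11 ± 0.47 (log2; limma adjusted p = 0.54). The list summed to 7.09 to 12.2 FPKM in LD, 6.28 to 21.6 FPKM in TAC and 9.15 to 10.04 FPKM in sham, and its mean log2 deviation from sham was lowest in LD replicate 3, at -1.05, and highest in TAC replicate 3, at 1.06. The epicardial keratin Krt19 and the uroplakins Upk1b and Upk3b stayed under 1 FPKM in every library, and the mesothelial gene Msln reached 4.22 FPKM, in LD replicate 3. Of 5 listed atrial myocyte genes 3 were tested (Nppa, Myl4 and Myl7). All 5 listed summed to 167 to 554 FPKM in LD, 99.1 to 451 FPKM in TAC and 66.0 to 102 FPKM in sham. Nppa made up most of each sum, with 477 FPKM in LD replicate 3 and 447 FPKM in TAC replicate 3. In TAC replicate 3 Myl7 and Sln were at 0 and Myl4 at 4.44 FPKM. The sums thus follow Nppa and not the list as a whole. The mean log2 deviation of the 3 tested atrial genes from sham was 2.77 in LD replicate 3, against -0.51 and 0.22 in the other LD hearts. Myl7, the atrial myosin light chain, was at 42.3 FPKM in LD replicate 3 and at most 7.51 FPKM in any other library. Of 7 listed fat cell genes 3 were tested (Fabp4, Cfd and Car3), 2 above 0 and 1 below in TAC minus sham, with a median of 0.10. Plin1 was at 0 in every library. Adipoq was at 1.45 FPKM in TAC replicate 3, 1.72 FPKM in LD replicate 3 and 0 elsewhere. Fabp4 ran from 2275 to 3932 FPKM. None of 6 cell division genes passed the filter. The part of these cells in the levels of the 9 genes was not tested.

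Across the 9 hearts the spread of the 9 genes was uneven. Vim lay closest to the mean of the other 8, with a root mean square difference of 0.11 (log2, 9 libraries), followed by Dpt at 0.17, Pdgfra at 0.23 and Tcf21 at 0.28. Gsn lay farthest, at 0.57, and Fstl1 next, at 0.49. Summed over the 9 genes, the level was 1080 to 1617 FPKM in LD, 1326 to 1992 FPKM in TAC and 939 to 1088 FPKM in sham. Without Gsn the sums were 447 to 477 FPKM in LD, 454 to 805 FPKM in TAC and 336 to 493 FPKM in sham.

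Among all other genes tested, those whose values over the 9 libraries lay closest to the mean profile of the 9 were Galnt1, Zmat2, Lcp1, Mapre2 and Anxa7, at root mean square differences of 0.0998 to 0.12. None of these 5 is in the fibroblast lists. Galnt1, a Golgi enzyme that starts O-linked glycans, averaged 13.2 FPKM in LD, 19.2 FPKM in TAC and 12.7 FPKM in sham. Closest to Tcf21 alone were Olfml2b, Pmp22 and Ttc9c (0.20 to 0.22). Pmp22, a membrane protein best known from myelin, averaged 14.7 FPKM in LD, 28.8 FPKM in TAC and 13.4 FPKM in sham. Closest to Pdgfra were Trim63, Riok2 and Nuak1 (0.16 to 0.18). Trim63, a ubiquitin ligase of muscle, averaged 113 FPKM in LD, 161 FPKM in TAC and 104 FPKM in sham. With 9 libraries and 11380 genes, close profiles are a description of these hearts.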

How the data were processed

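Total RNA of 9 mouse hearts, 3 biological repeats per group, was selected for poly-A and sequenced, per the labels' protocols. Nothing there names a batch or pairs the hearts, so p-values measure the spread between these libraries. The authors deposited FPKM values. Per the submitters' processing notes the build was GRCm38 and the tools were CASAVA 1.8, fastp 0.20.0, HISAT2 2.1.0, Cufflinks 2.2.1, HTSeq 0.7.2 and DESeq. The sources used here do not give the annotation or say which tool wrote the FPKM values.

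Deposited FPKM values were read as whole multiples of the worth of 1 count, and whole counts were recovered for 100% of the 16262 genes above 0 (tolerance 0.001). For a gene above 0 in 1 library this holds by construction. For genes above 0 in few libraries it is easily met, so that share is no check of them. A gene of 1 kilobase with 3 counts would have 0.166 to 0.405 FPKM. Such limits cover counting error only, and in the libraries with mostly even values a count may not be 1 fragment. Values were analysed as log2(FPKM + 1), which understates differences of low genes, with limma 3.58.1 (R 4.3.3). The model had 1 mean for each group over all 9 libraries, leaving 6 residual degrees of freedom. Moderated two-sided tests used a mean-variance trend and Benjamini-Hochberg adjustment over all 11380 genes. On simulated data for TAC against sham with 11380 genes, 36% of 50 genes with a true 2-fold change passed, as did 98% of 50 with a 4-fold change. The simulation also held 50 changes each of 8-fold and 16-fold, and changed only genes with a mean FPKM of at least 5. Its noise was independent between libraries, without uneven hearts or the counting pattern. Many large changes ease the adjusted threshold, so these shares may be too high for the deposited data.

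The 9 genes and all lists were chosen with earlier results of these data known. Each of the 9 is named in each comparison; of a list, up to 4 genes of smallest p in TAC against sham or LD against TAC, and the genes of closest profile. Scin, Comp and others may be given in a further comparison, chosen after their values were seen. Groups came from the sample titles. Alternatives changed pseudocount, filter, scaling, fit and weights and left out each library. Those using the counting pattern were added after seeing the data. Gene coordinates are from GENCODE M21 (GRCm38).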

Additional observations from a re-analysis of the deposited data

How the results depend on the processing

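None of the 9 genes passed an adjusted p of 0.05 under any of the 25 alternatives, and all except Pcolce kept a positive TAC minus sham difference in all of them. Some alternatives cannot change that difference, so its sign there was fixed in advance. They are the filters, the fits without trend or with only the 2 groups, the replicate block, the pattern term and leaving out an LD library. The counts of all genes past the adjusted threshold did vary. For TAC against sham there were 0, but 2 with a mean FPKM of at least 5, 9 with array weights, 3 with voom, 6 in the libraries of mostly even counts alone, and 0 to 13 when 1 library was left out (13 without TAC replicate 1). For LD against sham there were 0, but 3, 135 and 4 under the first 3 of these, 10 with those 2 groups alone, and 0 to 8 when 1 library was left out (8 without TAC replicate 1). For LD against TAC there were 0 throughout. The median of the 9 genes for TAC minus sham was 0.55 to 0.90 leaving out 1 library and 0.17 in the 5 libraries without the even pattern, where that for LD minus TAC was -0.062. The median for LD minus sham was 0.34 with the pattern as a term.

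Differences near 0 changed sign. For LD minus TAC, Pi16 was 0.14 (median-of-ratios), 0.15 (upper quartile), 0.14 (voom), 0.19 (pattern term), 0.31 (5 libraries) and -0.19 to 0.11 leaving out 1 library. Pcolce was 0.12, 0.13, 0.14, 0.42 and 0.55 in the same order, 0.034 with array weights, 0.059 without TAC and LD replicates 3 together, and -0.29 to 0.18. Gsn was -0.061 with equal sums, -0.37 without both replicates 3, -0.14 with the pattern term, -0.12 in the 5 libraries and -0.30 to 0.32, and Ddr2 was 0.0195 without both replicates 3. For LD minus sham, Pdgfra was 0.085, 0.079, 0.12 and 0.15 (median-of-ratios, upper quartile, voom, pattern term) and -0.14 to 0.053. Dpt was 0.11, 0.10, 0.11 and 0.28 in that order, 0.064 without both replicates 3, 0.016 in the 5 libraries and -0.10 to 0.090. Fstl1 was -0.041 with equal sums, -0.055 with array weights and -0.25 to 0.38. Pcolce was -0.014 with equal sums, -0.041 without both replicates 3 and -0.082 to 0.26. Ddr2 was 0.037 without both replicates 3, 0.022 with the pattern term and -0.40 to 0.037, and Tcf21 was -0.0037 in the 5 libraries. For TAC minus sham, Pcolce was -0.10 without both replicates 3, -0.16 in the 5 libraries and -0.10 to 0.37. The cause was not tested.

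Each replicate number occurs once in each group, so adding it as a block could not change the group differences. With that block 0 genes passed in each comparison. Same-numbered libraries deviated together with correlations of -0.24 to 0.15, and the own number was best in 2 of 18 cases. No pairing by number was thus seen in expression. With so few hearts per group, a pairing with little effect on expression could be missed, so whether the numbers pair the hearts cannot be told.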
